A study of Mus musculus with 4 samples.

Results

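Helper T cells carry a set of membrane-bound and secreted ligands of the tumour necrosis factor (TNF) superfamily, and 10 of them are described here in stimulated CD4 T cells of the mouse lymph node. They are Tnf, Lta, Ltb, Cd40lg, Tnfsf8, Tnfsf11, Tnfsf14, Tnfsf4, Fasl and Tnfsf10, out of 28625 gene symbols in the matrices. The choice was by gene family and not by a cutoff on a measured value, with earlier results of these data known. The study sorted 2 kinds of activated CD4 T cell from the mediastinal lymph node at day 7 after Alternaria alternata extract (10 µg) and NP-OVA (25 µg), a hapten coupled to ovalbumin, had been given through the nose. T follicular helper (Tfh) cells, sorted by surface TCRβ, CD4, CD44, PD-1 and CXCR5, came from 3 C57BL/6 mice (the Tfh sort), and activated CD4 T cells with an IL-4 reporter signal came from 3 mice of the C57BL/6 4GET strain (the IL-4 reporter sort). Cells of both sorts received PMA and ionomycin for 30 min before single-cell 3′ RNA sequencing, so each level is one after restimulation, and no unstimulated group was analysed here. No age or sex of the mice is given in the labels, and the cells of each mouse carried their own hashtag antibody, so that 1 hashtag stands for 1 mouse. In 4GET mice a fluorescent reporter follows Il4 transcription. The reporter strain, the chemistry (version 2 and version 3) and the sequencing run all differ with the sort, so that values of the sorts are set side by side and not tested against each other.

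TNF superfamily ligands are trimeric proteins, most of them held at the cell surface, that bind receptors of the matching receptor family and act through TRAF adaptors, NF-κB or, for the death ligands, caspases. On helper T cells CD40 ligand is the contact signal that B cells need for germinal centres and class switching, lymphotoxin and TNF shape lymphoid tissue, and CD30 ligand, RANK ligand and OX40 ligand act on neighbouring lymphocytes and myeloid cells. PMA and ionomycin bypass the T-cell receptor and switch on protein kinase C and calcium signalling, and with them the transcription factors AP-1, NF-κB and NFAT.

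Expression was counted in UMIs (unique molecular identifiers, each standing for 1 captured RNA molecule). Cells needed 500 genes or more and no more than 10% of their UMIs from mitochondrial genes, and were given to a mouse where 1 hashtag had 10 or more counts and at least 3 times those of the second. Of 3956 barcodes of the Tfh sort 3916 passed and 3780 had a mouse, and of 7646 barcodes of the reporter sort 4585 passed (2772 were above the mitochondrial limit) and 3989 had a mouse, with no cell barcode shared by the sorts. Helper T cells had 2 or more UMIs over 6 T-cell receptor complex genes, no Cd79a or Cd8b1 UMI and fewer than 2 macrophage UMIs, which left 2917 cells in the Tfh sort (1086, 1178 and 653 by mouse) and 3364 in the reporter sort (1136, 985 and 1243). Their median depth was 2759 and 6608 UMIs per cell. Cd3e UMIs were seen in 86.7% and 87.3% of these cells and Cd4 UMIs in 55.4% and 74.5%, while Siglech, a plasmacytoid dendritic cell gene, and Ncr1, an NK cell gene, were at 0 in both sorts. Other genes listed for dendritic cells were present: Cst3 in 29.6% and 51.2% of cells, Zbtb46 in 0.480% and 0.446% and Flt3 in 0.0686% and 0.119%. Of those listed for NK cells, Klrb1c was seen in 0.720% and 1.07%, Eomes in 1.06% and 0.208% and Klre1 in 0.0343% and 0.119%. Cells with 2 or more Cd79a UMIs were counted as B cells, 562 in the Tfh sort and 250 in the reporter sort, although the sorts were for T cells. Each mouse gives every cell state of its sort, so UMIs were summed per mouse and state and compared within mice (n = 3 mice per sort) by edgeR's quasi-likelihood test over all genes. Levels are in CPM, the UMIs of a gene scaled to a common total, and changes are on the log2 scale with their standard error (SE).

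In GRCm38 (GENCODE M21) Ltb, Tnf and Lta lie side by side in the class III part of the major histocompatibility complex. Ltb spans chr17:35194439-35196320 on the plus strand, Tnf spans chr17:35199381-35202007 and Lta chr17:35203165-35205351, both on the minus strand. The gap from Ltb to Tnf is 3060 bases and that from Tnf to Lta is 1157 bases. Tnfsf14 is on the same chromosome at chr17:57189492-57194177, Tnfsf8 at chr4:63831308-63861347, Tnfsf11 at chr14:78277445-78308043, Cd40lg at chrX:57212143-57224042 and Tnfsf10 at chr3:27317028-27342427. Fasl (chr1:161780689-161788495) and Tnfsf4 (chr1:161395409-161418410) share chromosome 1. Lta and Ltb each overlap a miRNA gene on their own strand, and the other 8 overlap no annotated gene.

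RefSeq promoter windows (build GRCm38.p6) were found for 8 of the 10 ligands, Cd40lg and Tnfsf4 being named only. Of the windows, 5 are shown because their genes carry the comparisons that follow: Tnf, Tnfsf8 and Tnfsf11 were all higher in Il21+ cells of the Tfh sort, whereas Ltb was lower and Tnfsf10 higher in Il13+ cells of the reporter sort. Each is upstream sequence on the gene's own strand, 5′ to 3′, up to the base before the annotated gene: chr17:35202008-35202257 for Tnf, chr4:63861348-63861534 for Tnfsf8 and chr14:78308044-78308293 for Tnfsf11, all on the minus strand, and chr17:35194257-35194438 for Ltb and chr3:27316827-27317027 for Tnfsf10, on the plus strand. Capitals mark the NFAT core GGAAA on either strand, which reads TTTCC where it lies on the other strand.
Tnf: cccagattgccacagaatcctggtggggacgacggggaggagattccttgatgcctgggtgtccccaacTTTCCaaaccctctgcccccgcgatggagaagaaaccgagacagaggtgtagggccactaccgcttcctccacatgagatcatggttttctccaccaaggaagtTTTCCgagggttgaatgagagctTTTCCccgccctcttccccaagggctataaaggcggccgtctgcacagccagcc
Tnfsf8: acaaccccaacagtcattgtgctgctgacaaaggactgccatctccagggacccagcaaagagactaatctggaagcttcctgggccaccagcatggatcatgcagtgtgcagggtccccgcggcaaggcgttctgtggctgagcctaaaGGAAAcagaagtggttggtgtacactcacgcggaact
Tnfsf11: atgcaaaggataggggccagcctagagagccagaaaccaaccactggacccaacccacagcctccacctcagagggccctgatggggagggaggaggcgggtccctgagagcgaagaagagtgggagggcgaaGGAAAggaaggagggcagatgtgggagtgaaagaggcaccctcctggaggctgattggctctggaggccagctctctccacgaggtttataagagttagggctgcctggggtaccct
Ltb: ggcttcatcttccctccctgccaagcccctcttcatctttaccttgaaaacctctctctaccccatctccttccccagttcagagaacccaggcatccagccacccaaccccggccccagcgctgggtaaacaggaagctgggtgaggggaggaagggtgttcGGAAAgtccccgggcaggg
Tnfsf10: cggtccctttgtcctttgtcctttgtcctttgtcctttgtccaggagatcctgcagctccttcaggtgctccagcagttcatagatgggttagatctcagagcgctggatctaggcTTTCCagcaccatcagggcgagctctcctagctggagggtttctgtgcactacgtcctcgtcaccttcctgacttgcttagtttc
Tnf and Tnfsf14 held 3 NFAT cores, Lta and Fasl 2, and Ltb, Tnfsf8, Tnfsf11 and Tnfsf10 1 each. At least 1 core was present in 55.6% of all 32851 promoter windows of 250 bases, so its presence is common. The AP-1 motif TGANTCA occurred 1 time in the Tnfsf14 window (6.75% of all windows), and the kappa B motif (3 G, 2 free bases, then TTTCC, so that it contains the NFAT core) 1 time in the Ltb window (1.41% of all windows). These are matches of letters on both strands and not binding sites.

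Tnfsf8 (CD30 ligand) had the highest UMI level of the 10 transcripts in both sorts. A 3′ UMI does not scale with transcript length, so levels of different genes were set beside each other on the UMI scale. Whether the genes were captured equally well was not tested, so the order is one of UMI levels. In helper T cells of the Tfh sort Tnfsf8 stood at 2898, 2830.4 and 3166 CPM in the 3 mice, Cd40lg at 1106, 1174 and 1105 CPM, and Tnf at 692, 697 and 689 CPM. Ltb followed at 445 ± 13.3 CPM (SD, n = 3) and Tnfsf11 (RANK ligand) at 247 ± 10.1. Fasl (65.8 ± 3.75), Tnfsf14 or LIGHT (52.4 ± 3.42) and Lta (27.8 ± 3.95) were low, and Tnfsf10 or TRAIL (2.46 ± 1.31) and Tnfsf4 or OX40 ligand (0.586 ± 0.817) were close to 0. Between neighbours in this order the ranges over mice overlapped only for Tnfsf10 and Tnfsf4.

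The reporter sort gave another order in its upper part. Tnfsf8 stood at 713, 557 and 674 CPM, Tnf at 482, 443 and 436 CPM, Cd40lg at 457, 465 and 393 CPM, and Ltb at 415, 415 and 480.2 CPM, so that Tnf, Cd40lg and Ltb overlapped between mice. Tnfsf11 was at 159 ± 14.2 CPM, Fasl at 43.5 ± 10.6, Tnfsf14 at 23.0 ± 1.33, Tnfsf10 at 16.1 ± 3.18, Lta at 10.2 ± 1.62 and Tnfsf4 at 0.410 ± 0.181. Tnfsf4 had 7 UMIs in the Tfh sort and 13 in the reporter sort, seen in 0.206% (exact 95% binomial interval 0.0755 to 0.447) and 0.327% (0.163 to 0.584) of helper T cells, and was too low for any test. These intervals cover counting error only.

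With every cell reduced to 2000 UMIs, which left out 556 helper T cells of the Tfh sort and 294 of the reporter sort, Tnfsf8 was detected in 78.7% ± 2.12 and 40.3% ± 3.98 of cells. Without thinning the shares were 77.2% and 57.5%. At the same depth Cd40lg was detected in 77.5% ± 0.922 and 52.3% ± 3.85, Tnf in 66.3% ± 0.523 and 49.2% ± 1.79, and Ltb in 51.0% ± 3.15 and 58.2% ± 3.83. As a background, Cd40lg was seen in 4.86% ± 0.857 of thinned Tfh-sort B cells that held no T-cell receptor UMI. Median depth of all such B cells was 1995 UMIs, and those under 2000 UMIs were left out of this share. A helper T cell held UMIs of 3.33, 3.38 and 3.36 of the 10 ligands on average in the mice of the Tfh sort, against 2.48, 2.39 and 2.42 for reporter-sort mice. Cd40lg, Tnfsf8 and Tnf were seen together in 47.7%, 45.7% and 48.0% of thinned cells of the Tfh sort and in 15.0%, 12.8% and 14.5% of the reporter sort.

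**Figure D1:**
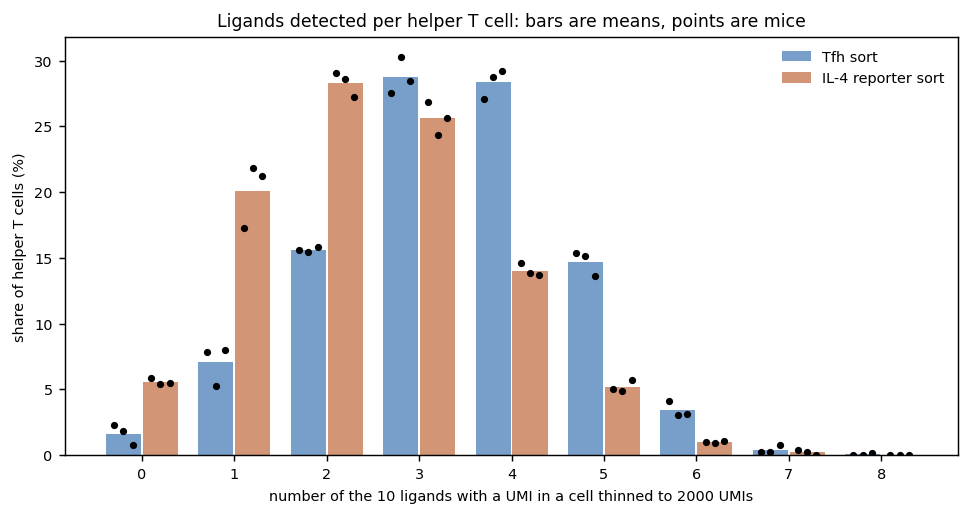
Share of helper T cells (%, vertical axis) with a given number of the 10 ligands detected (horizontal axis) after each cell was thinned to 2000 UMIs. Bars are means and points the 3 mice of each sort, whose means per cell lie between 3.33 and 3.38 ligands in the Tfh sort and between 2.39 and 2.48 in the reporter sort.

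The transcripts were spread unevenly over cells. At 2000 UMIs per cell, the top 10% of Tfh-sort helper T cells by Tnfsf8 held 33.5% ± 1.43 of its UMIs, and in the reporter sort the top 10% held 59.9% ± 4.43. For Cd40lg the shares were 30.8% ± 0.614 and 40.7% ± 3.58, for Tnf 34.7% ± 1.07 and 43.8% ± 1.46, and for Tnfsf11 53.8% ± 0.622 and 59.2% ± 0.547. Without thinning, cells with 10 or more Tnfsf8 UMIs made up 40.9% of helper T cells in the Tfh sort and 20.2% in the reporter sort, and the highest single cell held 107 and 111.

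**Figure D2:**
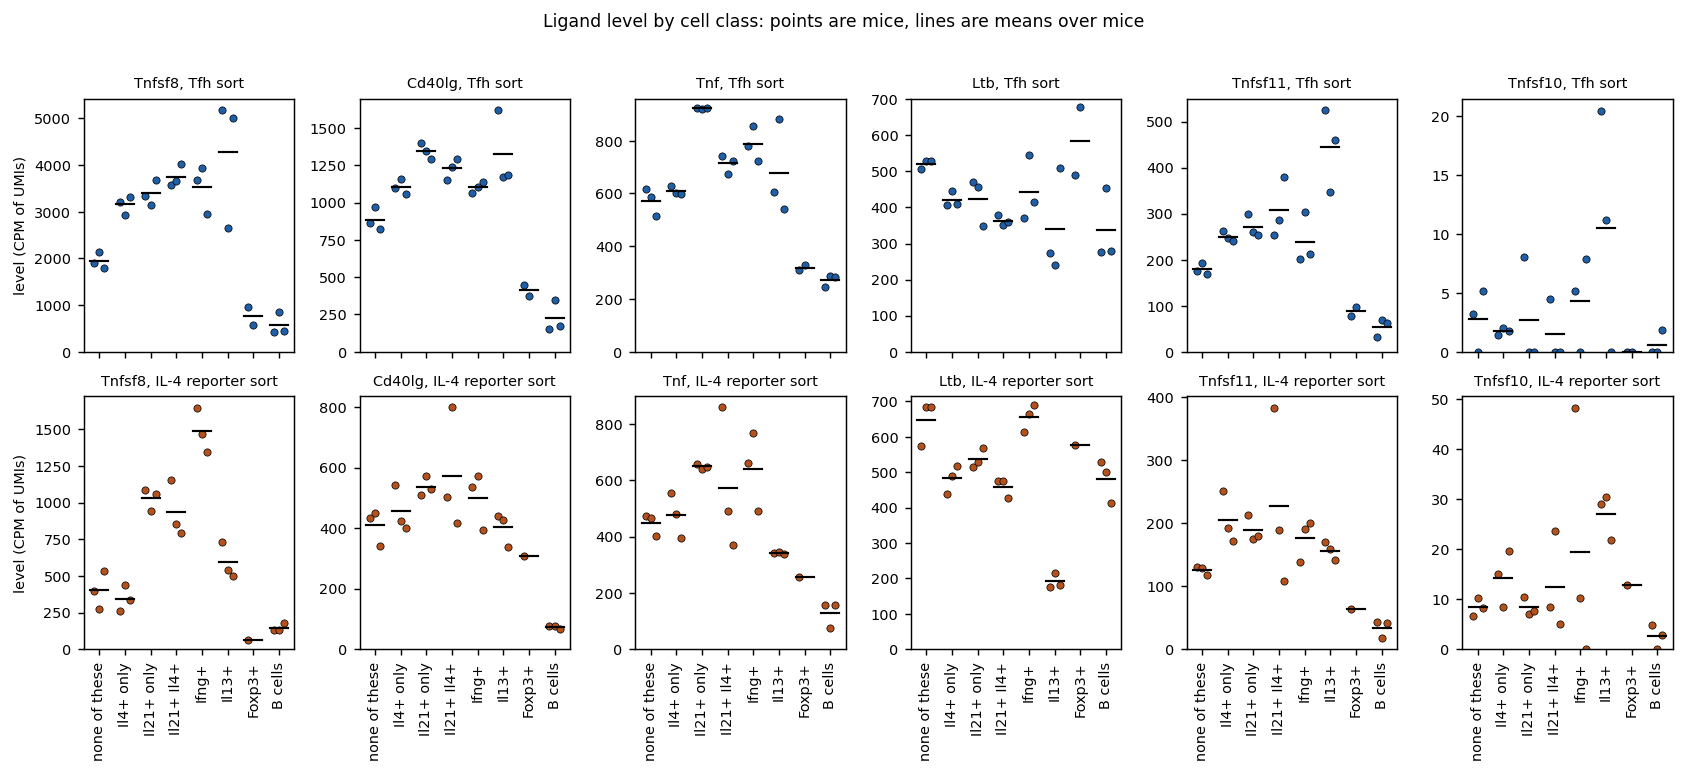
Level of 6 ligands (CPM of plain UMI totals, vertical axes from 0, scales differing between panels) by cell class (horizontal axis) in the Tfh sort (top) and the IL-4 reporter sort (bottom), where points are mice and lines are means. Tnfsf8 is high in Il21+ classes and low in Foxp3+ and B cells, and Ltb of the reporter sort is lowest in Il13+ cells (192 ± 20.7 CPM).

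Cells were then compared by the UMIs of 7 genes that mark helper states: Il4, Il13, Il21 and Ifng (2 or more UMIs against 0), and Foxp3, Gata3 and Cxcr5 (1 or more against 0). Of 16 planned comparisons, B cells included, 15 could be tested, and Tnfsf4 was measured in none of them and Tnfsf10 only in the reporter sort. A state that needs UMIs of its gene selects deep cells, so each comparison was repeated on cells matched for UMIs within each mouse, and the value at matched depth is given where it ended or gave a call. Other alternatives were a higher or lower UMI limit for the state, a helper T cell rule that takes every cell free of Cd79a (the looser rule), a mitochondrial limit of 5% and fits with DESeq2, without the mouse block or without 1 mouse. The settings that ended a call are named beside it.

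Il21+ cells of the Tfh sort held more of 4 ligands. Against Il21− cells 5 of 8 measured ligands passed (4 higher, 1 lower), where 2.12% of all 7693 genes did, and the median change was 0.42 for the ligands and −0.01 for all genes. For Il4+ cells 4 of 8 passed (2 higher, 2 lower) against 8.14% of genes, with medians of −0.11 and −0.00. Among Il13+ cells, which were few (25, 29 and 10 cells by mouse), 3 of 8 passed (2 higher, 1 lower) against 3.7% of genes, with medians of 0.09 and −0.08.

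Ifng+ cells of that sort gave 0 of 8 ligands past the adjusted threshold by edgeR and 0 by DESeq2, where 1.5% of genes passed. At an unadjusted p under 0.05 there were 4, Lta, Tnfsf8, Tnfsf14 and Fasl. The share of all genes at that unadjusted threshold was not counted, so the 4 cannot be set against the 1.5%. Without mouse 3 Tnfsf8 passed the adjusted test (0.42). Foxp3+ cells gave 4 of 8, all lower, against 6.15% of genes, with medians of −1.43 and −0.06, and only mice 1 and 2 had the 10 cells needed (32 and 21 cells). Gata3+ cells gave 3 of 8, all lower, against 14.2% of genes (medians −0.27 and −0.00), and Cxcr5+ cells 1 of 8, Tnfsf8, lower by 0.11, against 2.41% of genes.

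In the reporter sort Il13+ cells (216, 220 and 145 by mouse) gave 4 of 9 ligands (1 higher, 3 lower), but 57.6% of all 9770 genes passed, so the count is below the background. Median depth there was 12121, 12842.5 and 14217 UMIs against 6378, 6199.5 and 5842 in Il13− cells. Gata3+ cells gave 5 of 9 (1 higher, 4 lower) against 41.7% of genes, Il4+ cells 5 of 9 (2 higher, 3 lower) against 25.2%, and Cxcr5+ cells 5 of 9 (2 higher, 3 lower) against 20.7%.

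For Il21+ cells 2 of 9 ligands passed, both higher, against 4.58% of genes, and for Ifng+ cells 1 of 9, higher, against 0.782%. Median changes of the ligands were −0.18 for Il13, −0.25 for Gata3, −0.05 for Il4, −0.13 for Cxcr5, 0.20 for Il21 and 0.28 for Ifng, where those of all genes lay between −0.04 and 0.01. Foxp3+ cells of this sort (10, 6 and 6 cells) were too few for a test. Levels in the comparisons below use TMM-scaled totals and can differ slightly from the plain CPM above.

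**Figure D3:**
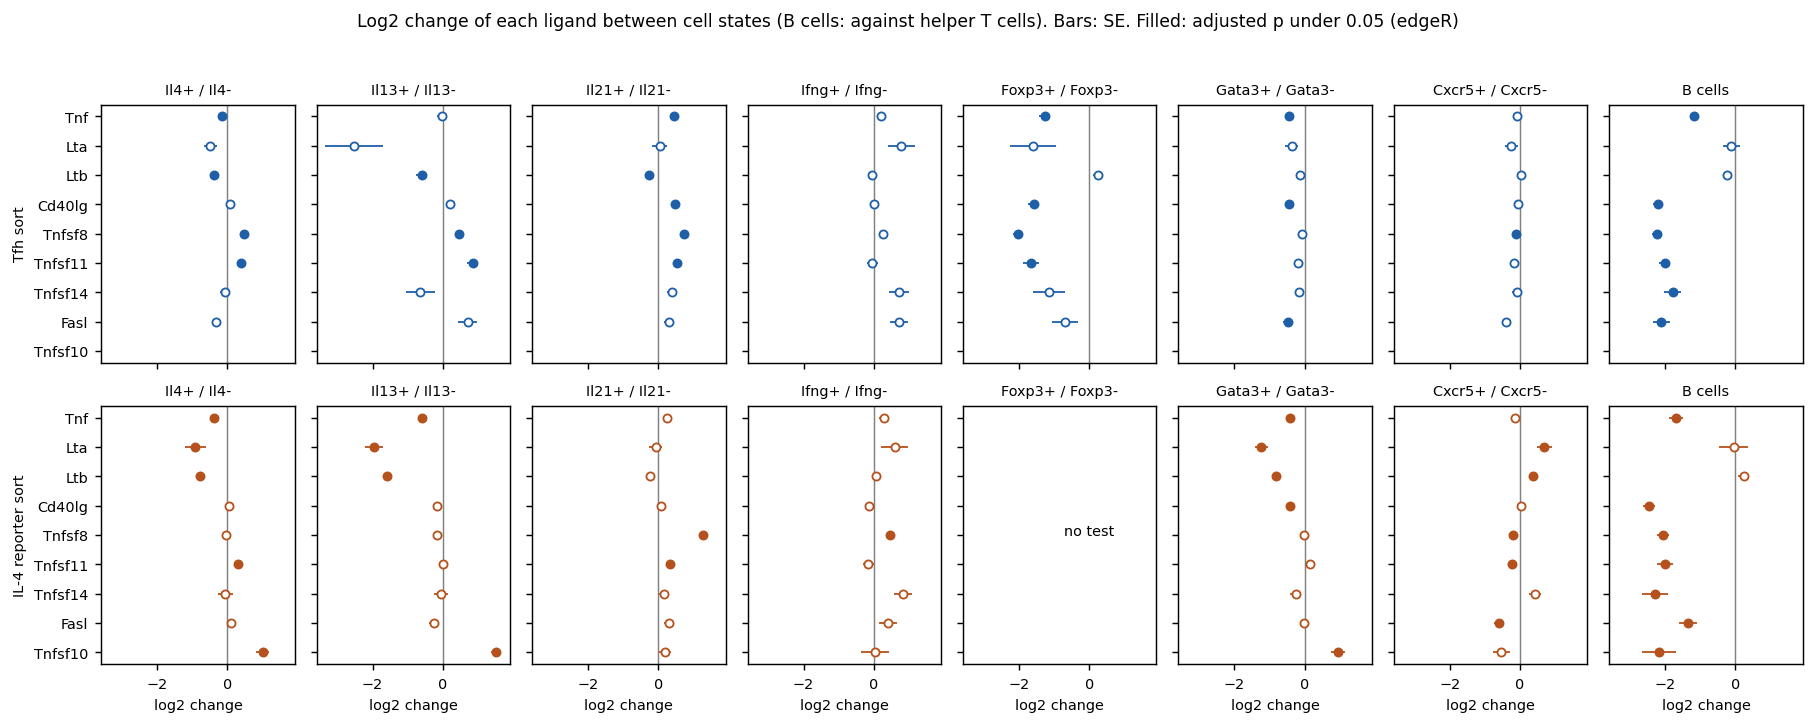
Log2 change (horizontal axes) of each measured ligand (vertical axis) in the 15 tested comparisons, with bars for the SE and filled points for ligands that passed by edgeR at an adjusted p of 0.05. Il21+ cells of the Tfh sort have 4 filled points to the right, and B cells have filled points to the left alone, 6 and 7 in number.

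Cd40lg, whose product engages CD40 on B cells and dendritic cells, was higher in Il21+ cells of the Tfh sort. It stood at 1258, 1284 and 1312 CPM in Il21+ cells and at 931, 1009 and 848 CPM in Il21− cells, with no overlap between the states. The change was 0.46 ± 0.05 (SE; adjusted p = 4.1e-05), higher in 3 of 3 mice, and 0.71 at matched depth. The same comparison in the reporter sort gave 0.07 ± 0.08 (adjusted p = 0.70), with 490.0, 428 and 433 CPM against 456, 491 and 353 CPM, and the states overlapped.

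Between Il4+ and Il4− cells Cd40lg did not pass in either sort (0.08 and 0.05), and at matched depth it was higher in Il4+ cells of both (0.33 and 0.48). It was lower in Gata3+ cells of both sorts, by 0.43 ± 0.04 in the Tfh sort (958, 939.9 and 885 against 1211, 1300.5 and 1255 CPM; adjusted p = 5.3e-12) and by 0.41 ± 0.07 in the reporter sort (447, 423 and 347 against 520.2, 613 and 479 CPM; adjusted p = 2.1e-04). In neither sort did the states overlap, yet at matched depth neither change passed (−0.14 and −0.13). Without the cells holding an Il13 UMI, an alternative chosen after seeing the data, the falls were −0.44 and −0.35 and passed.

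Foxp3+ cells of the Tfh sort held less Cd40lg in both mice that could be tested: 441 and 354 CPM against 1190.3 and 1243 CPM. The change was −1.58 ± 0.15 (adjusted p = 1.5e-22), and −1.22 and passing after matching for depth. The matching was incomplete here, since median depth after it was 5858 UMIs against 5257.5 in mouse 1 and 4579 against 3582 in mouse 2, and this holds for each matched value of Foxp3+ cells given below. With 2 mice the fit has few degrees of freedom, and the summed level of 5 regulatory T cell markers, Foxp3 among them, was 1662 to 2405 CPM in Foxp3+ cells and 599 to 709 CPM in the others. Foxp3 itself defines these states, and the sum without it is not given here. Before matching, median depth of the Foxp3− cells was 2792 and 2621 UMIs.

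Tnfsf8, which binds CD30 on activated lymphocytes, was higher in Il21+ cells of both sorts. In the Tfh sort it stood at 3614, 3481 and 3991 CPM in Il21+ cells and at 2229, 2180.1 and 2297 CPM in Il21− cells. The reporter sort gave 1181, 841 and 937 CPM against 431, 342 and 457 CPM. No mouse of one state reached into the other in either sort.

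The changes were 0.72 ± 0.03 (adjusted p = 9.6e-11) and 1.26 ± 0.07 (adjusted p = 1.8e-07), higher in 3 of 3 mice each, and both held under all 12 alternatives tried, from 0.62 to 0.82 among Tfh-sort values and from 1.12 to 1.38 among reporter-sort values. Among cell classes that do not overlap, Tnfsf8 of the Tfh sort was 1944 ± 182 CPM in cells with none of the 5 state genes Foxp3, Il13, Ifng, Il21 and Il4. It was 3157 ± 201 in Il4+ only, 3391 ± 273 in Il21+ only and 3754 ± 237 in Il21+ Il4+ cells, and neighbouring classes of these last 3 overlapped between mice. The reporter sort gave 402 ± 132, 346 ± 88.7, 1029 ± 75.3 and 933 ± 196 CPM in the same order of classes.

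Il4+ cells held more Tnfsf8 in the Tfh sort (3428, 3179 and 3727 against 2358, 2564 and 2472 CPM; 0.48 ± 0.03, adjusted p = 2.2e-54), with no overlap, and the change kept its direction and passed in each of 12 alternatives (0.39 to 0.56). The reporter sort gave −0.05 ± 0.08 for Il4 (adjusted p = 0.66). Ifng+ cells of the reporter sort held more Tnfsf8 (982, 731 and 944 against 712, 547 and 654 CPM; 0.47 ± 0.10, adjusted p = 0.030), but the change did not pass without mouse 3 (0.44), without the mouse block (0.47), with every cell free of Cd79a taken as a helper T cell (0.26) or with a mitochondrial limit of 5% (−0.19).

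Foxp3+ cells of the Tfh sort had the largest fall of Tnfsf8 among the helper states, 938 and 539 CPM against 3133 and 3009 CPM (−2.03 ± 0.14, adjusted p = 1.6e-41), and −1.56 at matched depth. In Il13+ cells of the Tfh sort it was 5336, 2682 and 4545 CPM against 2846, 2850.2 and 3131 CPM (0.46 ± 0.11, adjusted p = 1.8e-03), higher in 2 of 3 mice with overlap. Without mouse 1 that change was 0.19 and without mouse 3 it was 0.38, and neither passed, nor did it at matched depth (0.56), with DESeq2 (0.49) or without the count filter (0.36). In Cxcr5+ cells the differences were small. The Tfh sort gave −0.11 ± 0.03, a call that held in 5 of 12 alternatives. It was lost at matched depth (−0.05), without mouse 1 (−0.07), without mouse 3 (−0.09), with DESeq2, without the mouse block, with a hashtag ratio of 5 and with the 5% mitochondrial limit. In the reporter sort the change was −0.21 ± 0.07 and held in 6 of 12. It was lost without mouse 1 (−0.18), without mouse 2 (−0.09), with DESeq2, without the mouse block, with the looser rule and with the 5% mitochondrial limit (−0.04), and was −0.35 at matched depth.

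Of the genes at the major histocompatibility complex, Tnf, the founding inflammatory cytokine of the family, was higher in Il21+ cells of the Tfh sort. It stood at 810.2, 791 and 783 CPM against 582, 596 and 566 CPM, without overlap (0.45 ± 0.05, adjusted p = 5.0e-05), and at 0.75 when depth was matched. In the reporter sort Il21 gave 0.24 ± 0.08 (adjusted p = 0.10). There the values were 572, 428 and 497 CPM against 453, 441 and 373 CPM with overlap, and Tnf passed at matched depth (0.33) and without mouse 2 (0.38).

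Il13+ cells of the reporter sort held less Tnf, 345, 345 and 335 CPM against 564, 531 and 464 CPM (−0.60 ± 0.07, adjusted p = 8.1e-06), and the states did not overlap, but at matched depth the change was −0.07 and did not pass. The same happened with Il4+ cells of that sort (−0.39 ± 0.08, and −0.02 matched; lost also without the mouse block and with the 5% mitochondrial limit, −0.22) and with Gata3+ cells of both sorts (−0.46 ± 0.04 and −0.43 ± 0.07, and −0.10 and −0.22 matched). For Il4+ cells of the Tfh sort Tnf was lower by 0.16 ± 0.05 (643, 655 and 657 against 718, 719 and 746 CPM; adjusted p = 0.020). That call held in 4 of 12 alternatives. It was lost without any 1 of the 3 mice (−0.16, −0.17 and −0.15), with DESeq2, without the mouse block, with the lower UMI limit and with the looser rule, and turned to 0.12, without passing, at matched depth. In Foxp3+ cells Tnf was 307 and 308 CPM against 743 and 736 CPM (−1.27 ± 0.16, adjusted p = 7.1e-13), and −0.61 without passing at matched depth.

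Ltb, which anchors lymphotoxin α at the membrane, was lower in Il13+ and Gata3+ cells of the reporter sort. Il13+ cells of the reporter sort held 179, 214 and 182 CPM against 561, 593 and 594 CPM, a change of −1.61 ± 0.08 (adjusted p = 7.2e-10) with the states far apart. It was lower in 3 of 3 mice, −0.95 at matched depth, and passed under all 12 alternatives (−1.67 to −0.95). Gata3+ cells of that sort were at 362, 342 and 393 CPM against 593, 669.7 and 667 CPM (−0.81 ± 0.07, adjusted p = 4.5e-08), again without overlap, and −0.43 at matched depth.

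Il4+ cells of the Tfh sort held less Ltb, at 381, 389 and 387 CPM against 493, 541 and 465 CPM (−0.38 ± 0.06, adjusted p = 8.6e-09). The states did not overlap, and the fall passed under 12 of 12 alternatives (−0.43 to −0.30). The Il4+ fall in the reporter sort was larger on all cells, −0.79 ± 0.07 (302, 261 and 307 against 473, 485 and 547 CPM), but −0.09 at matched depth and −0.27 without Il13 cells, neither passing. In Il21+ cells of the Tfh sort Ltb was lower by 0.26 ± 0.06 (adjusted p = 0.033), lost at matched depth (−0.14), without mouse 2 (−0.23), without mouse 3 (−0.23), with DESeq2, without the count filter and with the looser rule.

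Cxcr5+ cells of the reporter sort held more Ltb, 510.5, 523 and 593 CPM against 414, 399 and 443 CPM (0.37 ± 0.06, adjusted p = 1.3e-05). The states did not overlap, the change was 0.33 at matched depth, and the call was lost with the 5% mitochondrial limit (0.26). In Foxp3+ cells of the Tfh sort Ltb was at 485 and 639 CPM against 455 and 469.6 CPM (0.25 ± 0.14, adjusted p = 0.37), and 0.98 and passing when depth was matched. Among Il13+ cells of the Tfh sort Ltb was 281, 244 and 462 CPM against 461, 479 and 441 CPM, lower in mice 1 and 2 and higher in mouse 3 (−0.61 ± 0.16, adjusted p = 7.5e-03). That call was lost without mouse 1 (−0.56), without mouse 2 (−0.38), with DESeq2 (−0.54) and at matched depth (−0.48).

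Lta, the partner of Ltb in membrane lymphotoxin, was rare. In the reporter sort it stood at 2.37, 4.27 and 3.68 CPM in Il13+ cells and 15.3, 12.5 and 13.4 CPM in Il13− cells (−1.96 ± 0.25, adjusted p = 1.0e-05), without overlap, and at −1.39 when depth was matched. It was lower in Gata3+ cells of that sort (8.50, 7.00 and 7.10 against 17.6, 13.1 and 21.9 CPM; −1.24 ± 0.19, adjusted p = 3.9e-05), a call lost at matched depth (−0.86). Il4+ cells gave −0.92 ± 0.30 (adjusted p = 0.033), which held in 6 of 12 alternatives. It was lost without mouse 3 (−0.40), at matched depth (−0.60), with DESeq2, without the mouse block, with the lower UMI limit (−0.41) and with the 5% mitochondrial limit, and it was 0.22 without Il13 cells. Cxcr5+ cells gave 0.69 ± 0.21 (adjusted p = 0.021), which held in 5 of 12. It was lost without mouse 1 (0.46), without mouse 3 (0.71), at matched depth (0.65), with DESeq2, without the mouse block, with the higher UMI limit and with the 5% mitochondrial limit. No Lta change passed in the Tfh sort, where Il13+ cells held 2 Lta UMIs in all (7.02, 5.67 and 0 CPM against 33.7, 28.7 and 26.1 CPM; adjusted p = 0.056).

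Tnfsf11 (RANK ligand), which acts on RANK of dendritic cells and osteoclast precursors, was higher in Il21+ and Il4+ cells of both sorts. In the Tfh sort it was 281, 286 and 332 CPM in Il21+ cells against 207, 206 and 204 CPM (0.53 ± 0.08, adjusted p = 7.9e-04). The states did not overlap, matched depth gave 0.64, and only leaving out mouse 2 ended the call (0.55). For Il4 it was 269, 271 and 314 CPM against 209, 228 and 207 CPM (0.38 ± 0.07, adjusted p = 2.0e-05), lost without mouse 1 (0.39) and with DESeq2, and 0.54 at matched depth.

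The reporter sort gave smaller changes of Tnfsf11, 0.34 ± 0.07 for Il21 (221, 169.6 and 161 against 156, 146 and 132 CPM; adjusted p = 0.016) and 0.30 ± 0.08 for Il4 (226, 184 and 147 against 163, 146 and 139 CPM; adjusted p = 0.012). The Il21 call was lost without mouse 1 (0.25), with DESeq2, without the mouse block and with the 5% mitochondrial limit (0.21). The Il4 call was lost without mouse 1 (0.21), without mouse 2 (0.28), with DESeq2 and without the mouse block. Cxcr5+ cells of the reporter sort held less Tnfsf11, 141, 141 and 136 CPM against 189, 156 and 150.0 CPM (−0.24 ± 0.08, adjusted p = 0.027), without overlap, and the call held in 6 of 12 alternatives. It was lost at matched depth (−0.05), without mouse 1 (−0.15), with DESeq2, without the mouse block, with the looser rule and with the 5% mitochondrial limit (−0.05). For Gata3 Tnfsf11 passed as lower in the Tfh sort without mouse 3 (−0.22 against −0.18 with all mice) and as higher in the reporter sort without mouse 2 (0.26 against 0.16). Il13+ cells of the Tfh sort held 541, 352 and 417 CPM against 225, 256 and 246 CPM, higher in 3 of 3 mice without overlap (0.84 ± 0.15, adjusted p = 3.9e-06), but without mouse 1 the change was 0.55 and did not pass, nor did it at matched depth (0.86). Its Il13 change in the reporter sort was 0.01 ± 0.08. Foxp3+ cells of the Tfh sort held 76.8 and 92.4 CPM against 255 and 269 CPM (−1.66 ± 0.23, adjusted p = 3.6e-10; −1.49 at matched depth).

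Tnfsf14 (LIGHT), a ligand of HVEM and the lymphotoxin β receptor, passed in no helper state of either sort on all cells. In Ifng+ cells it stood at 104, 78.7 and 63.8 CPM against 44.4, 54.4 and 55.4 CPM in the Tfh sort (0.73 ± 0.28, adjusted p = 0.34) and 59.8, 30.0 and 34.9 CPM against 24.3, 22.2 and 21.2 CPM in the reporter sort (0.84 ± 0.26, adjusted p = 0.23). In both sorts the mice of the 2 states did not overlap, and neither change passed over all genes. At matched depth Tnfsf14 passed in Il21+ cells of the Tfh sort (0.55) and in Il13+ cells of the reporter sort (0.77). Without mouse 2 it passed in Cxcr5+ cells (0.68) and Gata3+ cells (−0.42) of the reporter sort, where all 3 mice gave 0.43 and −0.25.

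Of the death ligands, Fasl, which triggers apoptosis through Fas, was lower in Cxcr5+ cells of the reporter sort, at 41.6, 26.0 and 24.3 CPM against 60.2, 43.6 and 36.8 CPM, lower in 3 of 3 mice although the ranges overlapped (−0.61 ± 0.12, adjusted p = 4.7e-04; −0.72 at matched depth). That call was lost without the mouse block (−0.64) and with the 5% mitochondrial limit (−0.47). The Cxcr5 change in the Tfh sort was −0.39 ± 0.13 (adjusted p = 0.069). Gata3+ cells of the Tfh sort held 57.5, 51.5 and 48.1 CPM against 77.2, 67.3 and 78.8 CPM (−0.48 ± 0.12, adjusted p = 4.5e-03), and −0.05 without passing at matched depth, nor did it pass with DESeq2 (−0.50). Without mouse 2 Fasl passed in Il21+ cells of the reporter sort (0.58 against 0.31 with all mice).

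Tnfsf10 (TRAIL), which binds a death receptor of the same family, was higher in Il13+ cells of the reporter sort. It stood at 29.6, 30.3 and 21.8 CPM in Il13+ cells and at 10.0, 9.61 and 8.64 CPM in Il13− cells, with no overlap. The change was 1.52 ± 0.15 (adjusted p = 7.6e-07), higher in 3 of 3 mice, 1.69 at matched depth and between 1.34 and 1.69 under 12 alternatives, all of which passed. Among classes it was 27.1 ± 4.64 CPM in Il13+, 14.3 ± 5.63 in Il4+ only, 8.36 ± 1.87 in Il21+ only and 8.37 ± 1.83 CPM in cells with none of the state genes.

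Gata3+ cells (19.4, 22.2 and 13.5 against 8.44, 9.02 and 10.0 CPM; 0.95 ± 0.19, adjusted p = 6.2e-04) and Il4+ cells (24.4, 32.0 and 15.3 against 11.8, 13.2 and 10.4 CPM; 1.00 ± 0.18, adjusted p = 5.5e-04) also held more Tnfsf10. After cells with an Il13 UMI were left out, the Gata3 change was 0.05 and the Il4 change 0.77, and neither passed, nor did the Il4 change with the 5% mitochondrial limit (0.71). Of the Cxcr5+ cells, Tnfsf10 was 5.20, 13.7 and 14.2 CPM against 18.9, 20.3 and 12.3 CPM (−0.53 ± 0.24, adjusted p = 0.12), and −1.07 and passing without mouse 3. Tnfsf10 of the Tfh sort had 26 UMIs in all helper T cells. Its Il13+ cells there were at 20.4, 11.2 and 0 CPM on 5 UMIs, a comparison that could be fitted only without mouse 3 (2.93, which passed).

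Il13+ cells of the reporter sort were also set against Il21+ Il13− cells in place of all Il13− cells, a comparison chosen after seeing the data. Tnfsf10 was again higher (1.48 ± 0.20), Ltb (−1.53 ± 0.09) and Lta (−1.96 ± 0.30) were again lower, and Tnf (−0.93), Tnfsf8 (−0.86), Fasl (−0.58), Cd40lg (−0.43) and Tnfsf11 (−0.29) were lower too. At matched depth against all Il13− cells, in contrast, Cd40lg (0.63), Fasl (0.53), Tnfsf11 (0.39) and Tnfsf8 (0.29) passed as higher, so these 4 passed in opposite directions under the 2 alternatives. On all cells they gave −0.18, −0.26, 0.01 and −0.18, none passing, and without mouse 1 Cd40lg (−0.22), Fasl (−0.45) and Tnfsf8 (−0.28) passed as lower. Tnfsf14 passed at matched depth as well (0.77) and gave −0.16 without passing against Il21+ cells. Th2 markers (6 genes, Il13 and Gata3 among them) summed to 1592 to 3407 CPM in Il13+ cells and 187 to 193 CPM in Il13− cells, and 6 B-cell markers to 208 to 362 CPM against 60.05 to 81.9 CPM. Il13 itself defines the states, so the selection sets part of the gap in the Th2 sum. The Th2 sum without Il13 is not given here. In both states Cd79a was at 0 by definition, and the part of the B-cell transcripts in these results was not tested.

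**Figure D4:**
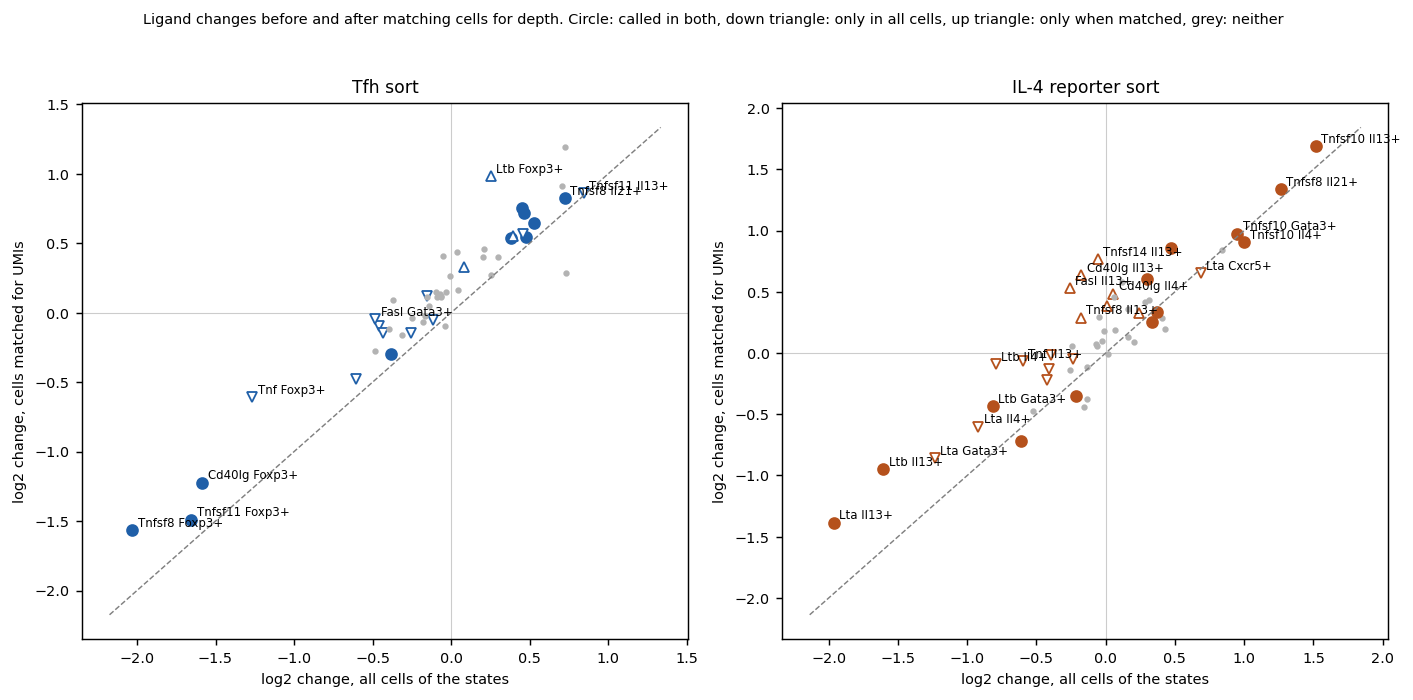
Log2 change of each ligand on all cells of the 2 states (horizontal axis) and on cells matched for UMIs within each mouse (vertical axis), for the helper state comparisons of each sort, with the dashed line where both are equal. Circles passed in both, open triangles in 1 of the 2 only and grey points in neither. Tnfsf10 and Ltb in Il13+ cells and Tnfsf8 in Il21+ cells of the reporter sort are far from 0 on both axes, whereas Tnf in Il13+ cells moves from −0.60 to −0.07.

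B cells in the same lanes held less of most ligands than helper T cells. Of 8 ligands measured in the Tfh sort 6 passed, all lower, against 34.3% of genes, and in the reporter sort 7 of 9, all lower, against 15.3% of genes. The median change was −1.90 and −2.01 for the ligands and 0.01 and −0.05 for all genes. Cd40lg was at 166, 349 and 190.0 CPM in B cells against 1039.9, 1100.0 and 1034 CPM in helper T cells of the Tfh sort (−2.21 ± 0.14, adjusted p = 3.6e-09). It was at 81.3, 80.8 and 68.7 against 452, 447 and 370.2 CPM in the reporter sort (−2.45 ± 0.17, adjusted p = 2.6e-07), with no overlap in either.

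Tnfsf8 was lower by 2.24 ± 0.14 and 2.06 ± 0.17 on the log2 scale, Tnfsf11 by 2.02 ± 0.16 and 2.01 ± 0.23, Tnf by 1.17 ± 0.09 and 1.70 ± 0.20, Tnfsf14 by 1.78 ± 0.24 and 2.29 ± 0.37, and Fasl by 2.11 ± 0.24 and 1.36 ± 0.26. All of these passed, although Fasl in the reporter sort did not at matched depth (−0.84). Tnfsf10, measured in the reporter sort, was at 5.19, 0 and 2.96 CPM in B cells against 15.95, 18.5 and 12.1 CPM in helper T cells (−2.18 ± 0.49, adjusted p = 7.6e-03). Lta (−0.12 and −0.05) and Ltb (−0.24 and 0.24) did not pass. For Ltb the levels were 307, 454 and 307 CPM in B cells against 416, 430.0 and 405 CPM in helper T cells of the Tfh sort, and 557, 525 and 418 against 411, 399 and 452 CPM in the reporter sort, and the cell types overlapped in both. Without mouse 2 Ltb passed as lower in the Tfh sort (−0.41).

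T-cell transcripts were present in many of these B cells: the 7 helper T cell markers summed to 1239 to 2283 CPM in B cells and 8972 to 9139 CPM in helper T cells of the Tfh sort. A subset chosen after seeing the data, B cells with no UMI of the 6 receptor complex genes (77, 61 and 65 by mouse), held 27.6 ± 16.6 CPM of Cd40lg, 26.0 ± 5.09 of Tnfsf8, 148 ± 13.2 of Tnf and 312 ± 21.2 of Ltb. Against helper T cells their changes were −5.19 ± 0.20 for Cd40lg, −6.58 ± 0.16 for Tnfsf8, −4.26 ± 0.37 for Tnfsf11 and −1.99 ± 0.15 for Tnf, all passing, and −0.27 ± 0.13 for Ltb, not passing. Ltb and Tnf had the highest levels of the 10 ligands in these cells. Whether T cell and B cell pairs in 1 droplet contribute to the other B cells was not tested, since hashtags mark pairs only across mice.

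Partners of the ligands were counted in lists of receptors (18 genes), other ligands (7), adaptors and NF-κB genes (20) and acute stimulation genes (20). These lists were counted on all cells of each state only and were not repeated at matched depth. In B cells of the Tfh sort 5 of 10 measured receptors passed as higher and 4 as lower, where 34.3% of all genes passed, among them Cd40, the receptor of CD40 ligand (4.63 ± 0.44), the BAFF receptor Tnfrsf13c (6.61 ± 0.15) and the plasma cell receptor Tnfrsf17 (7.32 ± 0.96) as higher and Tnfrsf9 (4-1BB) as lower (−2.39 ± 0.22). Tnfrsf17 was at 8.84 CPM in B cells and 0 in helper T cells, so the size of its change is not a measured ratio. Of 13 receptors measured in the reporter sort 3 were higher and 6 lower, where 15.3% of genes passed, with Cd40 at 8.20 ± 0.44 and Tnfrsf13c at 6.56 ± 0.25. Mean Cd40 there was 43.1 CPM in B cells against 0.121 CPM in helper T cells, so the size of its change rests on a level close to 0.

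Foxp3+ cells of the Tfh sort, low in 4 ligands, held more of 3 of 9 measured receptors, Tnfrsf9 (2.38 ± 0.17), Tnfrsf18 or GITR (1.31 ± 0.16) and Tnfrsf4 or OX40 (1.08 ± 0.13), and less of none, where 6.15% of all genes passed. Of 20 acute stimulation genes 10 were lower there and 1 higher, with Il2 at −3.15 ± 0.19 and Cd69 at −0.87 ± 0.13 (list median −0.67, all genes −0.06). Of 20 adaptor and NF-κB genes 3 were lower: Map3k14 (−1.35 ± 0.44), Tnfaip3, the NF-κB inhibitor A20 (−1.02 ± 0.17), and Nfkbia (−0.58 ± 0.13). The other ligand measured, Tnfsf9 (4-1BB ligand), was lower as well (−0.997 ± 0.23).

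Il21+ cells held more Tnfrsf4 in both sorts (0.37 ± 0.06 in the Tfh sort, 0.43 ± 0.06 in the other) and less Tnfrsf9 (−1.29 ± 0.11 and −0.54 ± 0.12). Tnfsf9 was higher in both (0.43 ± 0.08 and 0.65 ± 0.09), and so was Rel, an NF-κB subunit (0.26 ± 0.05 and 0.42 ± 0.07). Of 20 acute stimulation genes 3 were higher and 3 lower in the Tfh sort and 3 higher and 0 lower in the reporter sort, where 2.12% and 4.58% of all genes passed, with Il2 at 1.18 ± 0.07 and 0.58 ± 0.14. In the Tfh sort Dusp1 (−0.51 ± 0.06) and Jun (−0.37 ± 0.09) were among the lower ones. The list's median change was 0.04 and 0.00, and that of all genes −0.01 and 0.00.

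In Il13+ cells of the reporter sort 5 of 12 receptors were higher and 5 lower, among them Tnfrsf8, the receptor CD30 that Tnfsf8 binds (1.46 ± 0.32), as higher, and Cd27 (−1.48 ± 0.09), Fas (−1.23 ± 0.18) and Tnfrsf1a, a TNF receptor (−1.93 ± 0.38), as lower. Levels of Tnfrsf8 (6.53 against 2.30 CPM) and Tnfrsf1a (1.25 against 4.88 CPM) were low. Map3k14, the NIK kinase of the alternative NF-κB pathway, was lower (−1.62 ± 0.18) and Nfkb1 higher (0.86 ± 0.11). Of 20 acute stimulation genes 10 were lower and 3 higher (list median −0.19, all genes −0.04). The largest changes were those of Ier3 (3.04 ± 0.17), Dusp5 (1.18 ± 0.09), Fosb (−0.93 ± 0.07) and Nfatc1 (−0.78 ± 0.08). With 57.6% of all genes passing in this comparison, the count of acute stimulation genes lies near the background. Gata3+ cells of the Tfh sort had 14 of 20 acute stimulation genes lower and 1 higher, Cd69 at −0.46 ± 0.03 and Nr4a2 at −0.37 ± 0.04 among the lower ones, beside the falls of Tnf, Cd40lg and Fasl (list median −0.25, all genes −0.00), where 14.2% of all genes passed. The higher gene was Ier3 (0.66 ± 0.22), the largest change of this list. At matched depth 46 genes passed in this comparison against 1086 on all cells, and the falls of Tnf, Cd40lg and Fasl did not pass. The acute stimulation genes were not examined at matched depth.

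Within single thinned helper T cells some ligand pairs were detected together more often than others. In the Tfh sort 83.7%, 84.0% and 82.9% of cells with a Tnf UMI also had Cd40lg, against 63.5%, 67.5% and 65.6% of cells without Tnf, an odds ratio of 2.67 as the geometric mean over mice, with 0.5 added to each cell count. The reporter sort gave 62.3%, 61.5% and 60.0% against 46.4%, 47.7% and 36.8%, an odds ratio of 2.05. Cd40lg and Tnfsf8 had odds ratios of 2.63 and 1.60, and Tnfsf8 and Tnfsf11 of 1.92 and 1.52, above 1 in 3 of 3 mice of each sort.

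Lta and Tnfsf14, both rare, had odds ratios of 2.22 and 2.69. Of cells with Lta in the Tfh sort, 18.5%, 15.1% and 22.2% had Tnfsf14, against 8.36%, 9.30% and 11.4% of the others. The shares in the reporter sort were 4.35%, 15.8% and 14.3% against 4.52%, 4.52% and 5.46%, higher in 2 of 3 mice. In mouse 1 the odds ratio was 1.39 although the share was lower, because 0.5 was added to each count. The value of 2.69 therefore rests on few cells and partly on this addition. The neighbours Tnf and Ltb had an odds ratio of 0.976 in the Tfh sort (above 1 in 1 of 3 mice) and of 1.18 in the reporter sort, and the neighbours Tnf and Lta had 1.29 and 1.42. Ltb and Tnfsf8 had 0.850 and 0.965. Of 28 pairs in the Tfh sort 22 were above 1, and of 36 in the reporter sort 28. Cells of 1 mouse share a library and their states, so these are descriptions without a test.

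**Figure D5:**
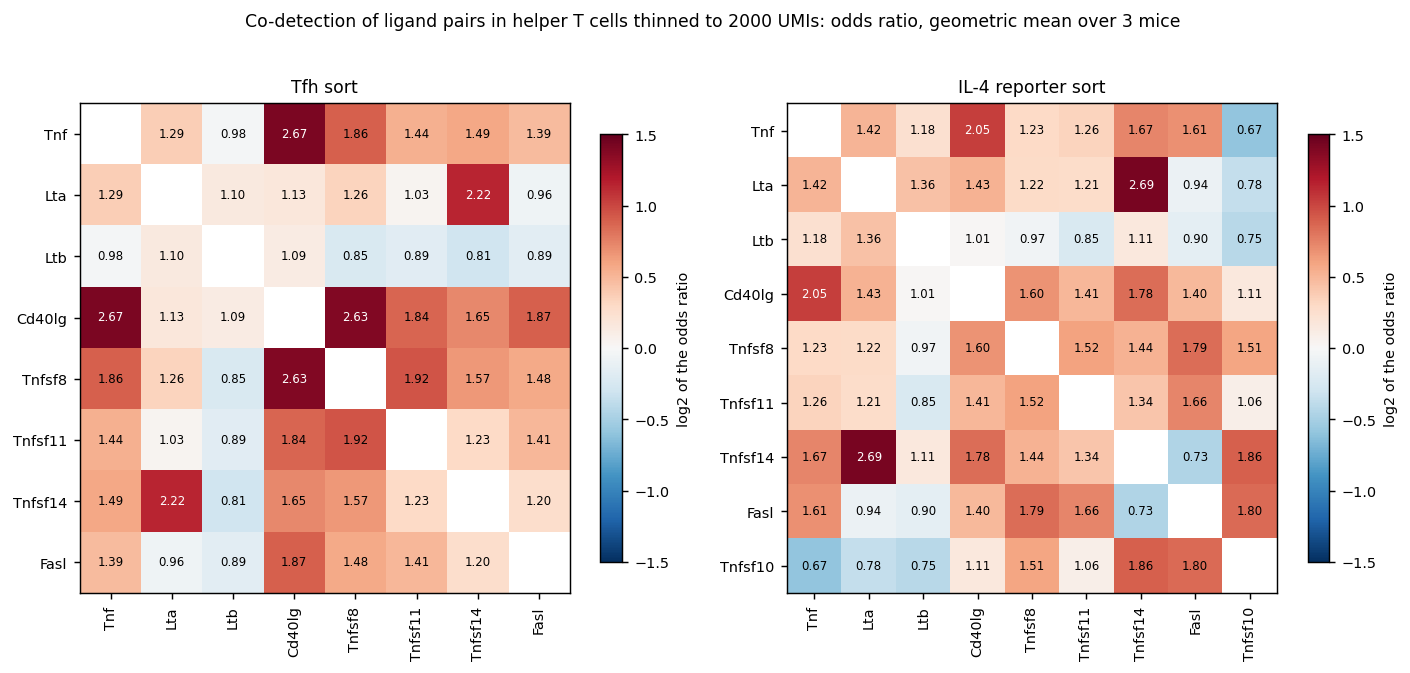
Odds ratio of detecting 2 ligands in the same helper T cell thinned to 2000 UMIs, as the geometric mean over 3 mice, for the Tfh sort (left, 28 pairs) and the IL-4 reporter sort (right, 36 pairs). Colour gives the log2 of the odds ratio. Tnf with Cd40lg (2.67) and Cd40lg with Tnfsf8 (2.63) have the highest odds ratios in the Tfh sort and Lta with Tnfsf14 (2.69, both rare and on few cells) and Tnf with Cd40lg (2.05) in the reporter sort, and the Ltb row lies between 0.749 and 1.36.

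By correlation over cells within each mouse (Pearson r of log-scaled UMIs per 10000, mean over 3 mice, with r of 0.15 or more in each mouse and genes in at least 5% of cells), the gene most like Tnf in the Tfh sort was Cd40lg (0.35), followed by Nfkbid (0.32), an NF-κB regulator, and Egr2 (0.28), an early response factor. Cd40lg was most like Nfkbid (0.41), Tnfsf8 like Cd40lg (0.32) and Tnfsf11 like Il2 (0.26). In the reporter sort Tnf was most like Cd69 (0.42), an early activation marker, Cd40lg like Cd69 (0.47) and Fos (0.43), and Tnfsf8 like Eea1 (0.35), Angptl2 (0.33) and Il21 (0.32). Ltb was most like Shisa5 (0.34) and Malat1 (0.28), and Tnfsf10 like Ccl1 (0.20). No gene passed for Lta or Tnfsf14 in either sort, or for Ltb in the Tfh sort (highest mean r 0.168). Genes with symbols that start with mt-, Rpl, Rps or Gm or end in Rik were left out of this ranking. All these values rest on cells that share libraries and depth, and are given as descriptions.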

How the data were processed

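Single-cell 3′ RNA libraries and hashtag libraries of 2 sorts were analysed, with 3 hashtagged mice each. The deposited matrices give unnormalized UMI counts for each gene in each barcode, made by the authors with Cell Ranger 2.2.0 per the submitters' processing notes (the header of the reporter matrix gives 3.0.2) on mm10 and GRCm38, and the deposited hashtag counts are raw as well; whether these are molecules or reads is not given in the sources used here. The annotation release is not given either. Depth was 3.38e+06 to 5.43e+06 UMIs per mouse in the Tfh sort and 1.20e+07 to 1.51e+07 in the reporter sort.

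UMIs were summed per mouse and state where 10 or more cells were present, and 67 duplicate symbols were added together. Sums were tested with edgeR 4.0.16 in R 4.3.3 (TMM, filterByExpr with a minimum count of 10, quasi-likelihood F test, Benjamini-Hochberg adjustment over all genes tested, threshold 0.05). Each mouse gives both states from 1 animal and 1 lane, so the mouse was a block in the main fit, and the fit without it was an alternative. The block leaves 2 residual degrees of freedom with 3 mice, and fewer for Foxp3 in the Tfh sort. P-values set the change within the mice of 1 sort against a variance that edgeR estimates partly from all genes together. A very small p-value therefore does not rest on the spread of that gene between mice alone. DESeq2 1.42.0, RLE scaling, no filter, each mouse left out, cells matched for UMIs in 5 bins, other UMI limits, a looser helper T cell rule, a hashtag ratio of 5 and a mitochondrial limit of 5% were tried. The fitting scripts were tested on simulated data. Python 3.11.15, numpy 2.4.6, scipy 1.17.1 and pandas 2.3.3 did the rest.

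The ligands, gene lists and comparisons were chosen with earlier results of these data known. The rule for naming was each ligand in each comparison that measured it. Of each partner list, up to 4 passing genes with the largest change were open to naming. The text names only part of them, and none for several comparisons, those of Il4, Ifng and Cxcr5 among them. Each ligand that passed is named with its value, the others in part. Doublets within a mouse carry 1 hashtag and were not removed. The sort cannot be told apart from strain, chemistry and run, so sorts were not tested against each other.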

Additional observations from a re-analysis of the deposited data

How the results depend on the processing

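Of 55 ligand changes that passed, 26 held their direction and passed under each setting of the processing that gave a value, additions made after seeing the data left aside. Over all ligand values 1368 kept direction and call, 47 gained a call, 97 lost one and 8 reversed. Counts of ligands passing moved as follows, and the share of all genes passing moved with the setting too. With DESeq2 the Tfh sort gave 2 for Il4, 1 for Il13 and 0 for Cxcr5, and the reporter sort 3 for Il4, 1 for Il21 and 2 for Cxcr5. Of all genes, DESeq2 passed 80 of 2578 for Il4, 105 of 9694 for Il13 and 10 of 1799 for Cxcr5 in the Tfh sort. For Il4 and Il21 of the reporter sort it passed 888 of 7417 and 105 of 7767 genes. Without the mouse block (pairing ignored) the ligand counts were 0 for Cxcr5 in the Tfh sort and 2 for Il4, 1 for Il21, 0 for Ifng and 1 for Cxcr5 in the reporter sort. Of all genes, 31 of 7686 passed there for Cxcr5 of the Tfh sort and 1514 of 9591 for Il4 of the reporter sort. Without the count filter the ligand counts were 5 for Gata3 (Tfh sort), where 1059 of 14101 genes passed, and 4 for Il21 (reporter sort). At matched depth the ligand counts were 0 for Il13, Gata3 and Cxcr5 of the Tfh sort, and 3 for Il4, 8 for Il13, 2 for Gata3, 3 for Cxcr5 and 4 for B cells of the reporter sort. There 21 of 2036, 46 of 7100 and 23 of 7187 genes passed for Il13, Gata3 and Cxcr5 of the Tfh sort. For Il4 and Il13 of the reporter sort 335 of 8181 and 1917 of 8434 genes did. The hashtag ratio of 5 gave 1 for Ifng, 5 for Gata3 and 0 for Cxcr5 in the Tfh sort. Of all genes, 120 of 7027, 1085 of 7628 and 96 of 7645 passed there, in the same order. The 5% mitochondrial limit gave 0 for Cxcr5 in the Tfh sort and 2 for Il4, 7 for Il13, 1 for Il21, 0 for Ifng and 0 for Cxcr5 in the reporter sort. Of all genes, 91 of 7559 passed for Cxcr5 of the Tfh sort. For Il4 and Il13 of the reporter sort 647 of 8587 and 3940 of 8887 did. The looser helper T cell rule gave 7 for Il13, where 5939 of 9981 genes passed, and 3 for Cxcr5 in the reporter sort.

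Chosen after seeing the data, the Il21+ reference gave 0 for Il13 in the Tfh sort and 8 in the reporter sort, and leaving out Il13 cells gave 0 for Il4 and 3 for Gata3 in the reporter sort. Of all genes, 166 of 4982 and 4381 of 9073 passed against the Il21+ reference, and 152 of 8661 for Il4 without Il13 cells. Without 1 mouse in turn, ligand counts in the Tfh sort ranged from 2 to 3 for Il4, 0 to 3 for Il13, 3 to 5 for Il21, 0 to 1 for Ifng, 3 to 5 for Gata3, 0 to 1 for Cxcr5 and 6 to 7 for B cells, and in the reporter sort were 4 for Il4, 4 to 7 for Il13, 1 to 4 for Il21, 0 to 1 for Ifng, 5 to 7 for Gata3, 2 to 5 for Cxcr5 and 7 for B cells. Counts of all genes moved as well. For Il21 of the Tfh sort they were 219 of 7341, 17 of 7347 and 52 of 7797 without mice 1, 2 and 3 in turn. Where no share of all genes is given, a moved ligand count cannot be set against it.

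Reversals were Tnf for Il4 in the Tfh sort at matched depth (0.12), Lta for Il4 in the reporter sort without Il13 cells (0.22), Tnfsf8 for Ifng in the reporter sort at the 5% mitochondrial limit (−0.19), Tnfsf11 for Il13 in the reporter sort against the Il21+ reference (−0.29), and Cd40lg (0.63), Tnfsf8 (0.29), Tnfsf14 (0.77) and Fasl (0.53) for Il13 in the reporter sort at matched depth. The cause was not tested. Counts over all genes at matched depth, where fewer cells enter each sum, were lower than on all cells in 14 of the 15 comparisons (for Il13 in the reporter sort 1917 against 5628, for Gata3 in the Tfh sort 46 against 1086) and higher for Il21 in the Tfh sort (322 against 163). Leaving out a mouse for Foxp3 in the Tfh sort, and B cells without T-receptor UMIs in the reporter sort, could not be fitted because too few mice had 10 cells. Depth limits what can be said of rare ligands: Tnfsf4, with 7 and 13 UMIs in helper T cells, allowed no test, and Tnfsf10 of the Tfh sort rests on 26 UMIs.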
